A study of Mus musculus with 16 samples.

Results

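The 9 chemokine receptor genes that mark or guide effector memory T cells, Ccr2, Ccr4, Ccr6, Ccr8, Ccr9, Ccr10, Cxcr3, Cxcr4 and Cxcr6, were followed across splenic memory CD4+ T cells of mice lacking heterochromatin protein HP1α or HP1γ. The genes were chosen by name, as 9 rows of the 56748 genes in the deposited tables, and all 9 passed the filter on low counts in every comparison. The series held 16 bulk RNA-seq samples of memory T cells (CD4+, CD25 low or negative, CD62L negative, CD44 high) sorted from the spleen, 4 in each of 4 groups. HP1α KO mice carried 2 copies of a deleted Hp1a allele, made by crossing a floxed allele to CMV-cre, which acts in all tissues, and their WT were +/+ littermates. HP1γ KO mice and their WT were both homozygous for a floxed Hp1g allele, and the KO also carried Cd4-cre, so that Cre itself and the loss of HP1γ in the CD4 lineage cannot be told apart. The background of both lines mixed 129/Sv and C57BL/6, and young sex-matched littermates were used. The comparisons asked whether loss of either HP1 changed the receptors and whether WT cells of the HP1α and HP1γ lines differed. The titles, the cell type and genotype labels and the study's methods gave these groups. A treatment label, the culture protocol and the design text deposited with the series instead describe regulatory T cells (Treg), cultured or recovered from mice given bone marrow and T cells, and do not match this account of the cells. Nothing in the labels ties a sample to a separate animal, so p-values measure the spread between these samples.

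Chemokine receptors are membrane proteins coupled to inhibitory G proteins, and each steers cells towards the tissue where its chemokine is made. Effector memory T cells lose the lymph node receptor Ccr7 and gain receptors for inflamed and barrier tissue. Cxcr3 goes with Th1 cells, Ccr6 with Th17 cells, Ccr4 and Ccr8 with Th2 and Treg and skin, Ccr10 with skin and mucosa, Ccr9 with the small intestine, Ccr2 and Cxcr6 with inflamed tissue, and Cxcr4, the receptor for Cxcl12, with bone marrow and homeostatic traffic.

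Each library held between 26694045 and 40199637 estimated counts on genes. Cbx5, which encodes HP1α, was at 23.0 to 29.0 CPM, counts scaled to library size, in HP1α KO and 33.8 to 54.0 in their WT, and Cbx3, which encodes HP1γ, was at 45.9 to 50.3 CPM in HP1γ KO and 73.4 to 92.5 in their WT, so neither pair of groups overlapped. Cbx5 was also low in the HP1γ line, at 20.1 to 29.8 CPM in KO and 27.1 to 37.4 in WT, so its level set HP1α KO apart from their own WT but not from the HP1γ line. Cbx3 was at 69.2 to 112 CPM over the HP1α line. The sorted type was checked by its markers, and Cd4 lay between 1015 and 1370 CPM. Markers of naive and central memory cells (5 genes) were present in all samples, with sums of 2121 to 2890 CPM, and among them Ccr7, which effector memory cells lose, was at 138 to 378 CPM. The Treg markers (4 genes) summed to 442 to 866 CPM, and the B cell markers (6 genes) summed to 6.20 to 25.6 CPM. Of the Treg markers Ctla4 was the highest, at 240 to 481 CPM. Ikzf2 was at 87.7 to 202 CPM, Foxp3 at 57.6 to 164 and Il2ra, which encodes CD25, at 26.1 to 44.1. Cells with high CD25 had been left out of the gate. In these bulk samples, fewer cells of a type and less RNA per cell cannot be told apart.

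Cxcr4 and Cxcr3 were the main receptors of the 9. Levels were compared between genes in TPM, which are scaled to transcript length and library size. Over the 8 WT samples Cxcr4 averaged 281 ± 122 TPM (SD, n = 8), Cxcr3 181 ± 22.1 and Cxcr6, the receptor for Cxcl16, 64.3 ± 20.9. The next 5 were close together, with Ccr8 at 28.5 ± 15.95, Ccr2 at 21.7 ± 5.25, Ccr4 at 18.8 ± 4.30, Ccr9 at 18.0 ± 5.58 and Ccr6 at 14.8 ± 4.29 TPM. Ccr10 was the lowest, at 7.45 ± 3.48 TPM. This order pools WT of both lines, and Ccr8 averaged 14.9 ± 3.29 TPM in HP1α WT, below Ccr2, Ccr4, Ccr9 and Ccr6 by less than the spread between samples, and 42.1 ± 9.50 in HP1γ WT, above them (SD, n = 4 each). Cxcr3 and Cxcr6 were the only neighbours in this order whose ranges over all 16 samples did not overlap, although Cxcr6 was above Ccr8 in 16 of 16 samples. From Ccr8 down to Ccr6 each receptor exceeded the next in 8 to 11 of 16 samples, and their differences were smaller than the spread between samples. Cxcr3 and Cxcr4 together made up 64.8% to 79.0% of the summed TPM of the 9 receptors, which was 487 to 890.

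**Figure D1:**
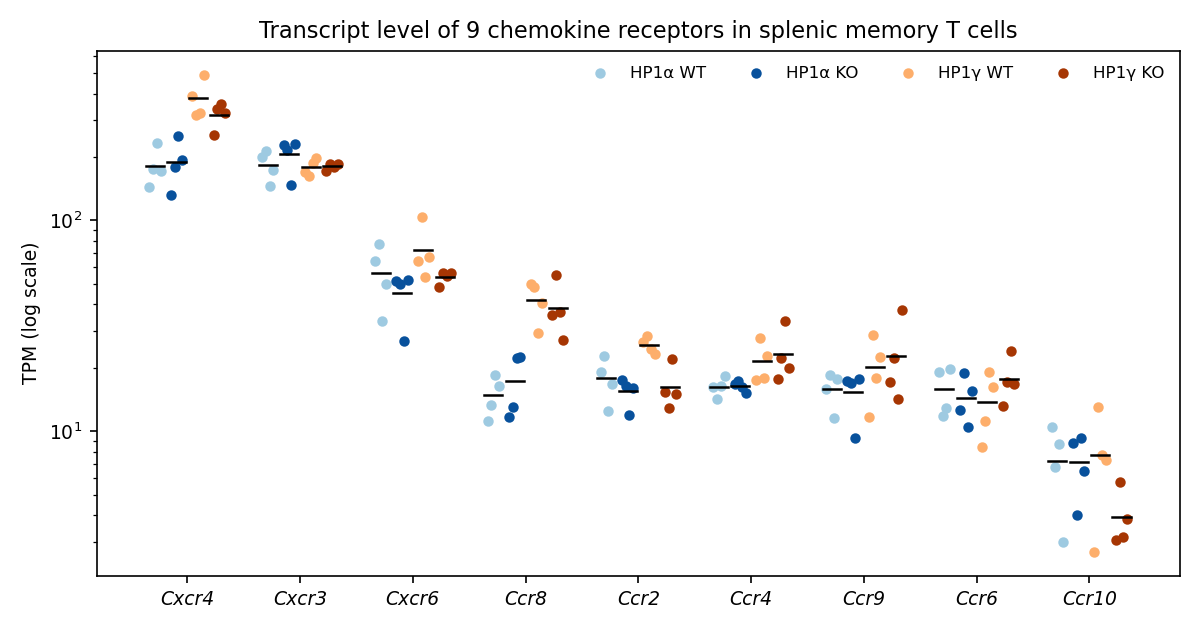
TPM of the 9 receptors on a log axis, ordered by their mean over the 8 WT samples, with 1 point per sample, colours for the 4 groups and a bar at each group mean. Cxcr4 and Cxcr3 stand above the rest, and the Cxcr4 and Ccr8 points of the HP1γ line (orange and brown) sit above most or all points of the HP1α line (blue).

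The leading receptor depended on the mouse line. Cxcr4 TPM exceeded Cxcr3 TPM in 8 of 8 samples of the HP1γ line and in 2 of 8 of the HP1α line. The ratio of Cxcr4 to Cxcr3 averaged 2.11 ± 0.343 in HP1γ WT and 1.75 ± 0.209 in HP1γ KO, against 1.03 ± 0.398 in HP1α WT and 0.991 ± 0.498 in HP1α KO (SD, n = 4 each). Both HP1α samples with Cxcr4 above Cxcr3 carried replicate number 3.

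Loss of HP1α gave no called change in any of the 9 receptors. A call was an adjusted p under 0.05 in the quasi-likelihood test of edgeR, with the Benjamini-Hochberg method applied over every gene tested. Of the 9 receptors 4 were nominally higher and 5 lower in HP1α KO, 0 passed, against a percent called of 0 among 14881 genes. At an unadjusted p under 0.05 the count was also 0 of 9 (4.27% of all genes), and DESeq2 called 0 of 9. The median log2 fold change was -0.0024 for the receptors and 0.0026 for all genes. The groups overlapped for every receptor (2.96% of all genes did not overlap).

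The largest difference was in Cxcr6. It was at 58.2, 56.1, 32.3 and 58.8 CPM in HP1α KO and at 72.7, 85.5, 40.2 and 57.3 in WT, in replicate order. Replicate 3 was the lowest sample of both groups, and the KO range reached into the WT range. The log2 fold change was -0.32 with an SE of 0.239 (edgeR adjusted p = 0.946), and it was -0.15 without KO replicate 3 and -0.14 without WT replicate 2. For Ccr8 the value was 0.23 (SE 0.255), for Ccr2 -0.22 (SE 0.163) and for Cxcr3 0.17 (SE 0.130). The other 5 receptors lay between -0.085 and 0.050 on the log2 scale.

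In the HP1γ line, too, 0 of 9 receptors passed, against 0.327% of 14975 genes (0.254% higher, 0.0735% lower). Without adjustment, Ccr2, Ccr10 and Cxcr6 were past p of 0.05, 3 of 9 against 11.9% of all genes, and all 3 were lower in HP1γ KO. The median log2 fold change of the receptors was -0.20, with 3 nominally higher and 6 lower, against a median near 0 over all genes.

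Ccr2, the receptor for Ccl2, Ccl7 and Ccl12, came nearest to a call. It was at 29.2, 23.9, 42.2 and 27.2 CPM in HP1γ KO and at 54.3, 56.4, 45.2 and 44.4 in HP1γ WT. All KO samples lay below all WT samples, which held for 1 of 9 receptors and, in the lower direction, for 3.89% of all genes, and KO replicate 3 stood close to the WT range. The log2 fold change was -0.70 (SE 0.160, edgeR unadjusted p = 0.00129, adjusted p = 0.155). With DESeq2 the adjusted p was 0.00376, and with KO replicate 3 left out edgeR gave -0.89 with an adjusted p of 0.0178, so the call depended on the tool and on that library. The summed level of Trdc and Zbtb16, 2 markers of γδ and innate-like T cells, was 53.0 to 62.7 CPM in HP1γ KO and 66.5 to 108 in WT (means 57.9 and 82.0, exact two-sided permutation p = 0.0286, the smallest that 4 against 4 samples allow, 0.223 after Benjamini-Hochberg adjustment over 39 tests). The gap was in Zbtb16, at 43.4 to 56.3 CPM in KO and 60.3 to 99.7 in WT (log2 fold change -0.55, edgeR adjusted p = 0.227). Trdc, the γδ gene, was level, at 5.85 to 9.59 CPM in KO and 6.14 to 8.72 in WT (0.018, adjusted p = 0.978). The part of these markers in the Ccr2 values was not tested.

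Ccr10, the receptor for Ccl27 and Ccl28, was at 3.03, 5.55, 3.17 and 3.72 CPM in HP1γ KO and at 2.92, 13.8, 7.54 and 7.45 in WT. Of the WT samples 3 were above all KO samples and replicate 1 was below them all. The log2 fold change was -1.03 (SE 0.391, edgeR adjusted p = 0.368), and -0.62 without WT replicate 2. Ccr10 lies inside Cntnap1 on the opposite strand, and Cntnap1 was also nominally lower, by -0.88 (SE 0.319, adjusted p = 0.359). Whether the counting used strand is not given in the sources used here, so reads of the 2 genes may not be separated.

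Cxcr6 was at 53.4, 60.5, 60.6 and 60.8 CPM in HP1γ KO and at 77.6, 122.6, 58.3 and 75.6 in WT. The WT samples were widely spread and their lowest sample fell among the KO samples. The log2 fold change was -0.50 (SE 0.184, edgeR adjusted p = 0.362), and -0.25 without WT replicate 2. Cxcr6 lies inside Fyco1 on the opposite strand, and Fyco1 averaged 59.0 CPM over all samples. As for Ccr10, reads of Cxcr6 and its enclosing gene may not be separated, in either line. Cxcr3 was nearly level, at 172 to 181 CPM in KO and 174 to 203 in WT, with a coefficient of variation of 2.54% over the KO samples and a log2 fold change of -0.055 (SE 0.0626). Ccr4, Ccr6 and Ccr9 were nominally higher by 0.059, 0.34 and 0.12, none past an unadjusted p of 0.05, and the ranges of KO and WT overlapped for each. Cxcr4 was nominally lower in KO, at -0.33 (SE 0.148, edgeR unadjusted p = 0.0507), and so was Ccr8, at -0.20 (SE 0.230). The KO and WT ranges of these also overlapped.

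Ccr9, the receptor for Ccl25 that plasmacytoid dendritic cells also carry, was at 31.2, 38.2, 25.6 and 65.8 CPM in HP1γ KO and at 22.3, 54.0, 31.7 and 40.7 in WT. Only KO replicate 4 lay above all WT samples. Siglech, a defining gene of plasmacytoid dendritic cells, was at 110.2 CPM in that KO sample and 25.2 to 37.6 in the other KO samples, and at 49.3 CPM in WT replicate 2, the WT sample highest in Ccr9. WT replicate 4, the next in Ccr9, had Siglech at 11.4 CPM, below the 32.0 of WT replicate 3. The summed markers of that cell type (Siglech, Bst2 and Tcf4) were at 93.9 to 254 CPM in HP1γ KO and 64.0 to 139 in WT, and their part in the Ccr9 values was not tested.

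**Figure D2:**
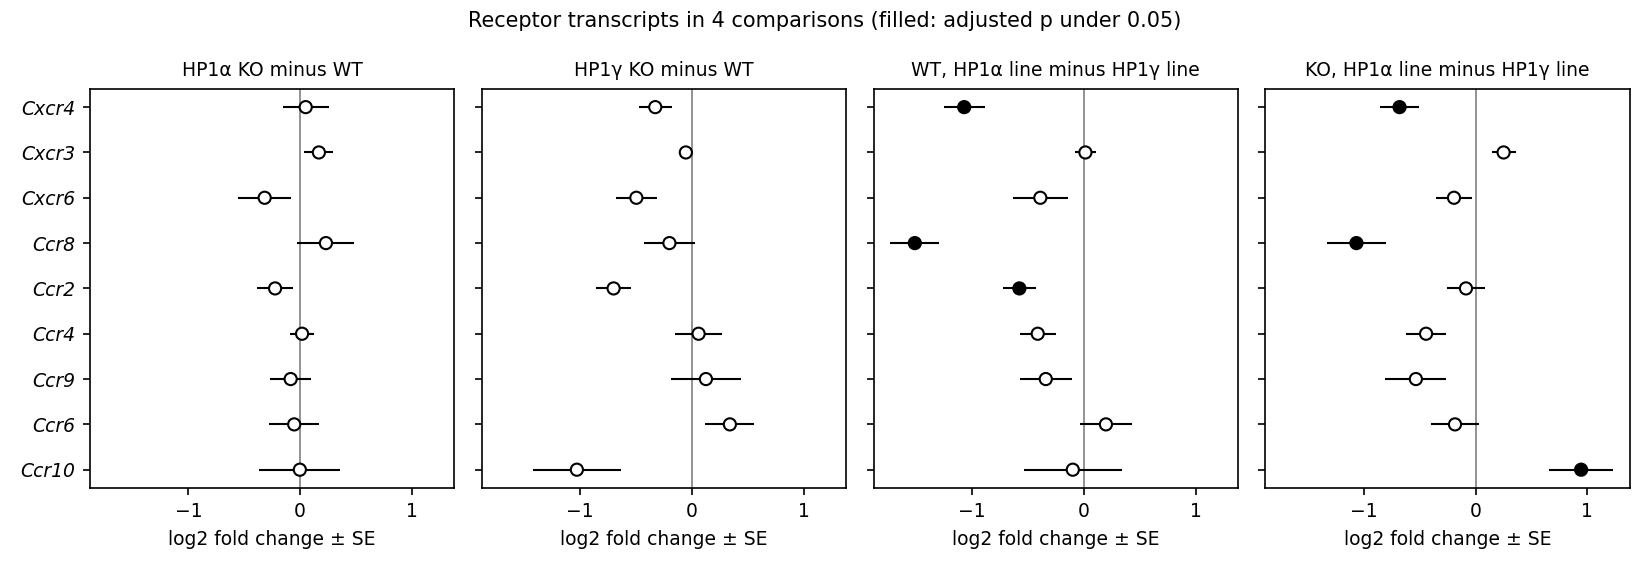
Log2 fold change (edgeR) with its SE for the 9 receptors in 4 comparisons, filled where the adjusted p was under 0.05. No point is filled in the 2 KO against WT panels, while Cxcr4 and Ccr8 are filled and left of 0 in both panels that set the HP1α line against the HP1γ line.

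WT cells of the HP1α line and of the HP1γ line differed in Ccr8, Cxcr4 and Ccr2. All 3 were lower in WT of the HP1α line, 3 of 9 receptors, where 12.8% of 14804 genes passed the same test and 8.25% passed as lower. That background was unstable, with 1222 genes lower and 674 higher in all samples, 471 to 1308 lower and 102 to 877 higher with 1 sample left out, and 466 and 111 with a replicate block. Both counts fell by over 1.5 times without HP1α WT replicate 1, 2 or 4 or HP1γ WT replicate 1 or 2. Ccr8 and Cxcr4 were also past a 2-fold change, which 1.90% of all genes were. All WT samples of the HP1α line were below all of the HP1γ line for the same 3 genes, which held for 10.7% of all genes. The median log2 fold change was -0.39 for the receptors and 0.015 for all genes. The 2 lines differ in breeding and may differ in handling, and these cannot be told apart from the floxed alleles.

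Ccr8, the receptor for Ccl1, showed the widest gap. It was at 7.34, 8.57, 13.04 and 11.1 CPM in HP1α WT and at 35.3, 33.1, 18.5 and 26.8 in HP1γ WT. The log2 fold change was -1.51 (SE 0.220, edgeR adjusted p = 0.00396). It stayed past the threshold with each of the 8 samples left out in turn, from -1.67 to -1.39. The KO samples, which share none of these libraries, gave the same order: Ccr8 was at 7.73, 8.59, 15.7 and 14.9 CPM in HP1α KO and at 23.0, 34.6, 23.8 and 17.0 in HP1γ KO, a log2 fold change of -1.07 (SE 0.264, adjusted p = 0.0126). All 8 samples of the HP1γ line were thus above all 8 of the HP1α line.

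Cxcr4 was at 130.7, 155, 227 and 159 CPM in HP1α WT and at 383, 298, 281 and 448 in HP1γ WT. The log2 fold change was -1.07 (SE 0.185, edgeR adjusted p = 0.00755), and it passed with each sample left out, from -1.25 to -0.93. In KO it was at 124.6, 156, 243 and 172 CPM for HP1α and at 229.9, 289, 318 and 279 for HP1γ, where HP1α replicate 3 overlapped the HP1γ range. The KO log2 fold change was -0.68 (SE 0.178, adjusted p = 0.0160). Over both genotypes 7 of 8 HP1γ samples were above every HP1α sample.

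Ccr2 differed between the lines in WT but was at like levels in KO. It was at 36.04, 42.7, 24.6 and 31.1 CPM in HP1α WT, all below the HP1γ WT values given above, with a log2 fold change of -0.58 (SE 0.148, edgeR adjusted p = 0.0315). In HP1α KO it was at 31.5, 30.1, 22.5 and 31.2 CPM, within the HP1γ KO range but for 1 sample, and the log2 fold change between the KO groups was -0.086 (SE 0.170, adjusted p = 0.724). The WT call was lost in 5 of 8 fits that left out 1 sample, HP1α WT replicate 1, 3 or 4 or HP1γ WT replicate 1 or 2, with adjusted p up to 0.102. The HP1γ WT samples are shared by this comparison and that of HP1γ KO with WT.

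The other 6 receptors were not called between the WT groups. Ccr4, the receptor for Ccl17 and Ccl22, was at 22.7 to 31.6 CPM in HP1α WT and 27.4 to 46.3 in HP1γ WT, a log2 fold change of -0.41 (SE 0.159, edgeR adjusted p = 0.111). Cxcr6 was at -0.39 (SE 0.245), Ccr9 at -0.34 (SE 0.230), Ccr6 at 0.20 (SE 0.231) and Ccr10 at -0.098 (SE 0.436). Cxcr3 was at 189 ± 24.3 CPM in HP1α WT and 187 ± 12.3 in HP1γ WT (SD, n = 4 each), a log2 fold change of 0.015 (SE 0.0907). Cxcr3 lay between 158 and 234 CPM over all 16 samples.

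Between the KO groups 3 of 9 receptors passed, a share near the 32.8% of 15020 genes that did. Ccr10 was higher in HP1α KO, at 8.98, 4.07, 10.1 and 6.54 CPM, than in HP1γ KO, with overlapping groups, by 0.94 (SE 0.287, edgeR adjusted p = 0.0293). That call was lost in 5 of 8 fits with 1 sample left out, HP1α KO replicate 1 or 3 or HP1γ KO replicate 1, 3 or 4. Without HP1α KO replicate 3 Cxcr3 was called higher instead, at 0.36 (edgeR adjusted p = 0.00196), and Ccr4 was called lower by DESeq2 (adjusted p = 0.0385) and by edgeR without HP1γ KO replicate 1 or 4 (adjusted p = 0.0481 and 0.0485). The difference between the KO effects of the lines was tested as an interaction in all 16 samples, where 0 of 9 receptors passed (0.0507% of 15776 genes), 0 had an unadjusted p under 0.05 (9.58%) and DESeq2 called 0. The largest were Ccr10, at 1.04 (SE 0.585), and Ccr2, at 0.49 (SE 0.249, edgeR adjusted p = 0.558).

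**Figure D3:**
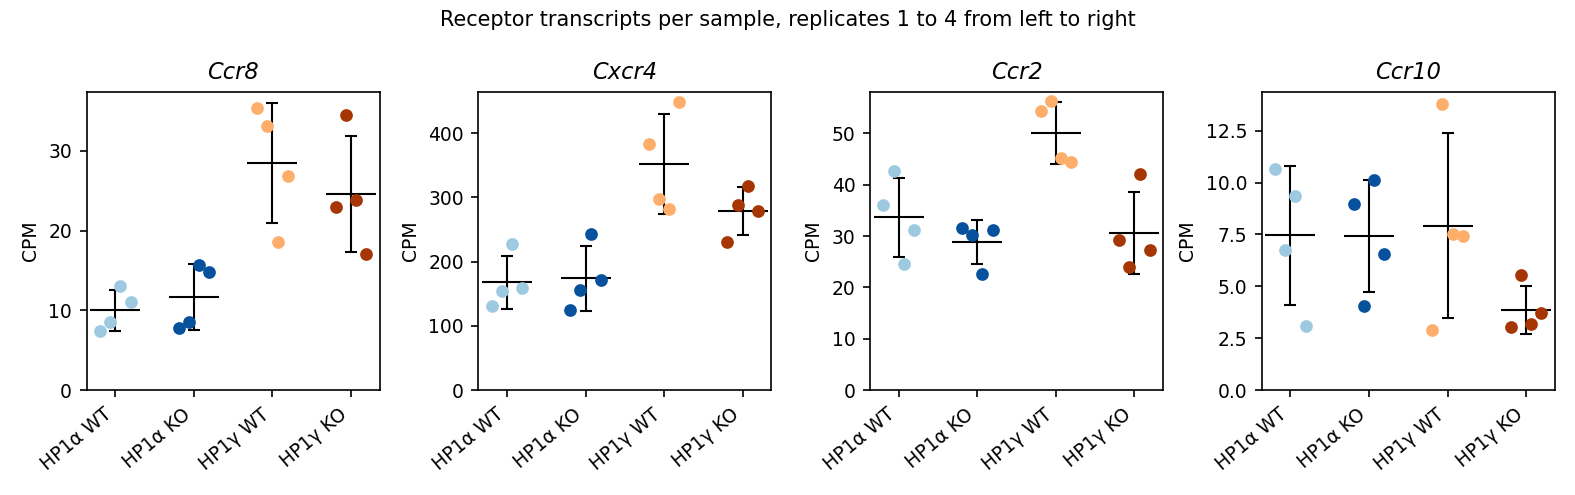
CPM of Ccr8, Cxcr4, Ccr2 and Ccr10 in each sample, with the group mean and SD as bars, from 0 upwards. Ccr8 in all 8 HP1γ samples (17.0 to 35.3) stands above all HP1α samples (7.34 to 15.7), while Ccr2 in HP1γ WT (44.4 to 56.4) stands above the samples of every other group (22.5 to 42.7).

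The promoters of Ccr8 and Cxcr4, the pair that differed between the lines in both genotypes, are shown for contrast, as the 250 bases before the annotated start, read from GRCm39 and written 5′ to 3′ on the gene's strand. The Ccr8 window is chr9:119920930-119921179 on the plus strand and the Cxcr4 window is chr1:128520045-128520294 on the minus strand. Capitals mark matches on either strand to 9 short motifs, which were TGANTCA for AP-1, GGAAA for NFAT, CACGTG for the E-box, CACCC for KLF factors, AGATAA for GATA factors, TCACAC for T-box factors, AGGTCA for nuclear receptors, TATAAA for the TATA box and TGACGTCA for CREB.
Ccr8: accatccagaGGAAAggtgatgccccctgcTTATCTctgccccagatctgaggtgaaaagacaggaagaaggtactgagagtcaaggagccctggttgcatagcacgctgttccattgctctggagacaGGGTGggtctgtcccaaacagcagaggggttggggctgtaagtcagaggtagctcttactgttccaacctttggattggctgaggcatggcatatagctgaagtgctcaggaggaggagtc
Cxcr4: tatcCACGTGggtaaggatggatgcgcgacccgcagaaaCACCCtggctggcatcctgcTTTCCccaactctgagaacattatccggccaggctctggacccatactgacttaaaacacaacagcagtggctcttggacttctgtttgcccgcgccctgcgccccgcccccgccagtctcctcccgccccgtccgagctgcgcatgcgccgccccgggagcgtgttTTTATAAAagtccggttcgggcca
The Cxcr4 window held 20 CpG and 61.6% GC and the Ccr8 window 1 CpG and 53.6% GC, where the median of 21757 promoters was 8 CpG with quartiles of 3 and 16. In the Cxcr4 window stood an E-box, found in 6.26% of promoters, and 2 overlapping TATA matches, found in 11.9%. In the Ccr8 window stood an AGATAA match, found in 9.61%. Both held GGAAA and CACCC, which 58.0% and 52.9% of promoters hold. A match is a description of these letters.

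Tested genes near the called receptors were counted in the comparison of the WT groups, where 12.8% of all genes were called. Within 500 kb of Cxcr4 (chr1:128515936-128520044, minus strand) 0 of 7 tested genes were called by edgeR in that comparison, and within 500 kb of Ccr2 (chr9:123901982-123913594, plus strand) 0 of 14. Within 500 kb of Ccr8 (chr9:119921180-119924263, plus strand) 2 of 13 were called, Eif1b at 0.24 and Gm47050 at -1.28, a share near that of all genes. Of the 9 receptors 5 lie on chromosome 9, where the others are Ccr4 (chr9:114319384-114333984, minus strand), Ccr9 (chr9:123507181-123613395, plus strand) and Cxcr6 (chr9:123635534-123640825, plus strand, inside Fyco1 on the opposite strand). Ccr6 lies at chr17:8454869-8475973 on the plus strand, Ccr10 at chr11:101063823-101066270 on the minus strand and Cxcr3 at chrX:100775141-100777875 on the minus strand. The estimated counts of Ccr2 were not whole numbers in 16 of 16 samples, so their values may hold reads split between like sequences.

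No gene of 4 lists tied to the receptors passed in either KO comparison. Of the 16 ligands of the 9 receptors 6 were tested, of 19 other chemokine and homing receptors 12 to 14, of 30 signalling genes 30 and of 16 transcription factors 16, and edgeR called 0 in each list for HP1α KO, HP1γ KO and the interaction. At an unadjusted p under 0.05 each list held 0 to 1 genes in HP1α KO, 1 to 3 in HP1γ KO and 0 to 3 in the interaction, where 4.27%, 11.9% and 9.58% of all genes did. The genes so counted in HP1α KO were Prex1 at 0.12 (edgeR unadjusted p = 0.0292) and Ikzf2 at -0.43 (0.0451). S1pr1, the sphingosine-1-phosphate receptor for egress, was at 0.19 and fell short of that count (0.0556). Those in HP1γ KO were Zbtb16, a factor of innate-like T cells, at -0.55 (0.00433), Ptger4 at -0.29 (0.00671) and Eomes at -0.57 (0.0133). Satb1 at -0.43 (0.0278), Rgs2 at -0.34 (0.0279) and Ccl1 at 0.94 (0.0356) were also among them. Cxcl10, a ligand of Cxcr3, was the ligand with the highest level, at 15.8 to 50.1 CPM, and Ccl12 was at 0 in all samples.

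Between the WT groups genes of every list passed, as did 12.8% of all genes. Of the ligands 1 of 6 passed, Cxcl10, lower in HP1α WT by -0.78 (SE 0.227, edgeR adjusted p = 0.0474). Among the other receptors 3 of 12 passed, S1pr1 at -0.74 and Ccrl2 at -0.52 as lower and S1pr4 at 0.41 as higher. Ccr7 was at 188 ± 38.9 CPM in HP1α WT and 286 ± 78.5 in HP1γ WT (SD, n = 4) and did not pass, at -0.60 (edgeR adjusted p = 0.0685). Among the signalling genes 6 of 30 were higher, Rgs14 at 0.46 and Rgs19 at 0.36, which speed G protein shut-off, Arrb2, an arrestin, at 0.40, Pik3cg at 0.37, Rasgrp2 at 0.32 and Coro1a at 0.26. The 4 lower ones were Rgs2 at -0.88, Rap1b, an integrin activator, at -0.52, Gnai3 at -0.35 and Elmo1 at -0.28. Of 16 transcription factors 5 were lower, Bhlhe40 at -1.01, Rora at -0.92, Eomes at -0.68, Hif1a at -0.63 and Zbtb16 at -0.57, and 0 higher. List medians ran from -0.30 for the other receptors to 0.059 for the ligands, against 0.015 over all genes. The summed effector memory markers (Cd44, Cd69, Itgae and Bhlhe40) were at 1448 to 1618 CPM in HP1α WT and 2269 to 2702 in HP1γ WT (exact two-sided permutation p = 0.0286, 0.223 adjusted). Most of that gap was Bhlhe40, at 830 to 1045 and 1539 to 2025 CPM, while Cd44 was at -0.35 (edgeR adjusted p = 0.0104), Cd69 at -0.084 (adjusted p = 0.663) and Itgae at 0.083 (adjusted p = 0.858). The naive and central memory sums (2121 to 2366 CPM in HP1α WT, 2485 to 2837 in HP1γ WT) and those of Trdc and Zbtb16 (48.4 to 59.5 and 66.5 to 108 CPM) also did not overlap, at the same exact permutation p and adjusted p. Trdc by itself overlapped, at 3.83 to 10.0 CPM in HP1α WT and 6.14 to 8.72 in HP1γ WT (-0.33, edgeR adjusted p = 0.471). The Treg sums overlapped (473 to 666 and 501 to 795 CPM). The part of these markers in the Ccr8, Cxcr4 and Ccr2 values was not tested. Between the KO groups 2 of 6 ligands, 5 of 13 other receptors, 17 of 30 signalling genes and 7 of 16 transcription factors passed, where 32.8% of all genes did.

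Samples of a group differed in several receptors at a time. Pearson's r of log2 CPM was taken over 16 samples after each group's mean had been subtracted, as a description. The 36 receptor pairs had a median r of 0.036, and 19 were positive. Ccr2 and Cxcr6 went together (r = 0.72, Spearman's rho 0.79), as did Cxcr3 and Cxcr6 (0.69, rho 0.64) and Ccr8 and Cxcr4 (0.64, rho 0.73), while Cxcr4 ran against Cxcr6 (-0.55) and Cxcr3 (-0.54). The last 2 rested on replicate 3 of HP1α KO and WT, the samples low in Cxcr3 and Cxcr6 and high in Cxcr4: without both, r was -0.16 and 0.044, and Cxcr3 with Cxcr6 was 0.30. Without these samples Ccr2 with Cxcr6 was 0.54 and Ccr8 with Cxcr4 was 0.51. Ccr9 with Cxcr6 was then 0.45, Ccr2 with Cxcr3 0.26, Ccr9 with Cxcr3 0.10 and Ccr2 with Ccr9 -0.26.

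**Figure D4:**
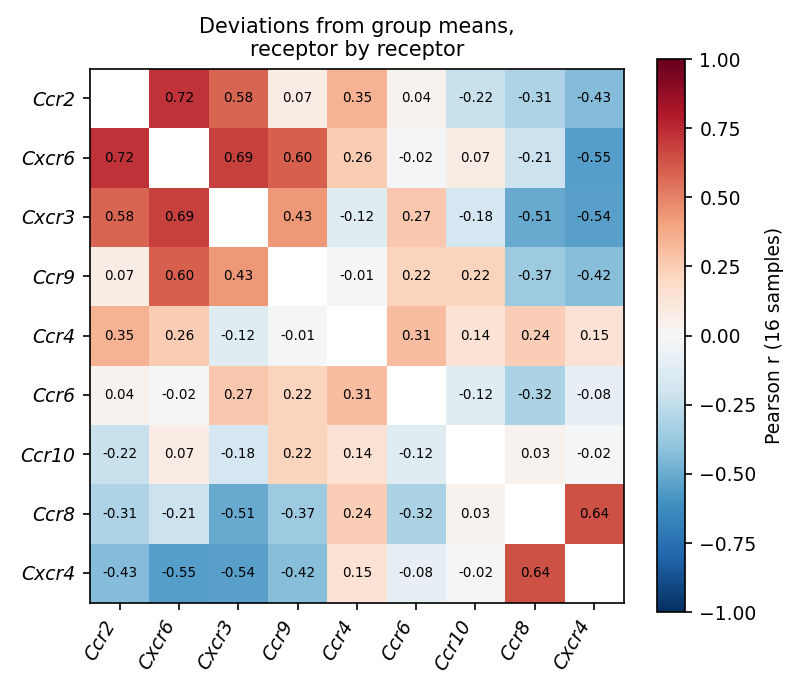
Pearson's r between the 9 receptors over 16 samples after subtraction of group means, in red where positive and blue where negative. Ccr2, Cxcr6, Cxcr3 and Ccr9 form a block of mostly positive values at one corner, and Ccr8 and Cxcr4 (0.64) at the other. Without replicate 3 of HP1α KO and WT, r among Ccr2, Cxcr6, Cxcr3 and Ccr9 ran from -0.26 to 0.54.

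Among 9744 genes with a mean of at least 5 CPM, genes with a pattern like that of each receptor were named. For Ccr8 these were Lrrc32 (r = 0.95), which encodes GARP of activated Treg, Cd83 (0.94) and Tnfrsf4 (0.93), which encodes OX40. Between the WT groups these 3 were at -0.82 (adjusted p = 0.0807), -0.94 (0.0792) and -0.82 (0.0474) by edgeR, the same direction as Ccr8, and Foxp3, which encodes the factor of Treg, was at 0.043 (adjusted p = 0.917). Ccr6 went with Clcn7 (r = 0.88) and Ano8 (0.88), and for Ccr10 the nearest was the enclosing gene Cntnap1 (0.94). Ccr2 was nearest to the interferon-induced gene Epsti1 (0.89), Cxcr6 to Epb41l2 (0.94), Ccr9 to Cd72 (0.89), Cxcr3 to Med19 (0.91), Cxcr4 to Chd9 (0.89) and Ccr4 to F8a (0.83). Without the 2 samples farthest from the median of the second gene, r was 0.89 for Ccr6 with Clcn7, 0.95 for Ccr8 with Lrrc32 and 0.88 for Ccr10 with Cntnap1.

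Receptors also went with markers of particular cells, on the same scale and over the same 16 samples, a description added after the values were seen. Cxcr6 went with Trdc and Zbtb16 of γδ and innate-like T cells (r = 0.88). Of that list Zbtb16 was at 33.3 to 99.7 CPM and Trdc, the γδ gene, at 3.83 to 10.0, and Tcrg-C1, also planned, was not found by that name. Ccr8 went with the Treg markers (0.82), of which Ctla4 had the highest level, and with the effector memory markers (0.77). Ccr9 went with Trdc and Zbtb16 (0.75) and the markers of plasmacytoid dendritic cells (0.68). Cxcr3 ran against the monocyte and macrophage markers (-0.82), plasma cell markers (-0.81) and B cell markers (-0.69). Without replicate 3 of HP1α KO and WT, r was 0.85 for Cxcr6, 0.84 for Ccr8 with Treg markers and -0.72 for Cxcr3 with monocyte and macrophage markers. Without the 2 samples farthest from the median, Ccr9 with plasmacytoid dendritic cell markers fell to 0.30. Samples share their depth and sort, and the part of other cells in these values was not tested.

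**Figure D5:**
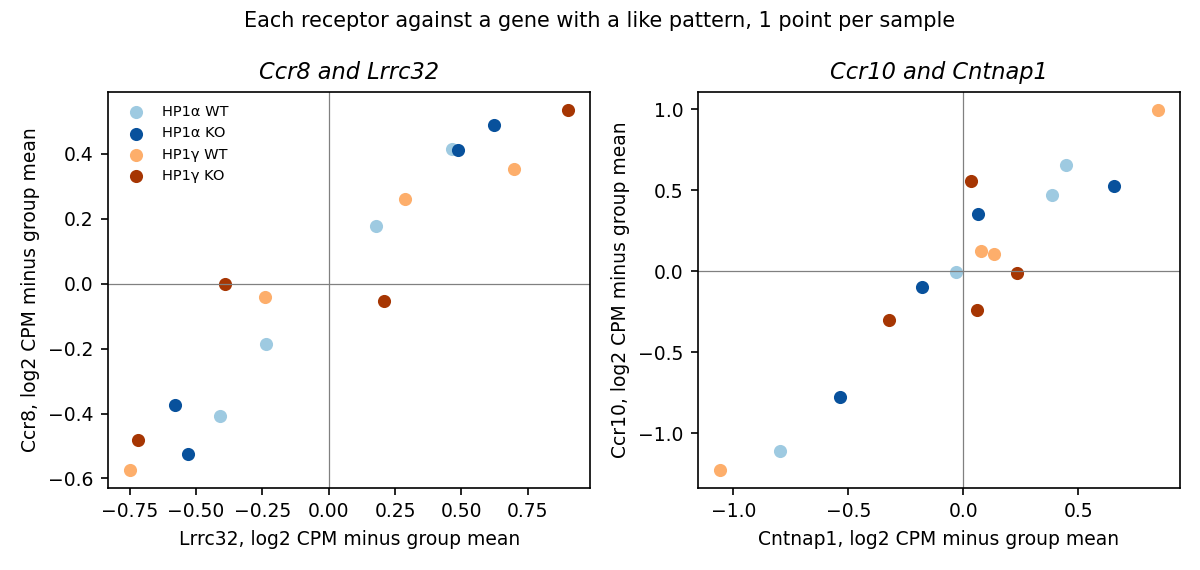
Deviation from the group mean in log2 CPM, 1 point per sample, for Ccr8 against Lrrc32 and Ccr10 against Cntnap1. The 16 points of each panel run from lower left to upper right.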

How the data were processed

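RNA-seq of 16 samples was made with a stranded mRNA ligation kit. The authors aligned reads with STAR to GRCm39 and quantified genes with Salmon, as the labels and the study's methods say, and deposited estimated counts and TPM per gene. TPM deposited by the authors were used for levels between genes. The estimated counts were rounded, filtered with edgeR's filterByExpr (minimum count 10), scaled by TMM and tested with edgeR's quasi-likelihood test (edgeR 4.0.16, R 4.3.3), with only the groups compared in each fit and all 16 samples for the interaction. SE is the log2 fold change divided by the root of F. CPM are after TMM over all samples. The comparison of the KO groups was added after the WT comparison was seen. Alternatives used DESeq2 1.42.0, limma 3.58.1 on log2(TPM + 1) and log2(TPM + 0.1), other filters and scaling, a replicate block, and each sample left out. Some genes are not reported here. The named genes are the 9 receptors, the targeted genes and every called gene of 4 lists, otherwise up to 3 of the smallest p, and the 3 genes most alike in pattern (likeness). The members and lists were chosen with earlier results of these data known. Of 56748 genes 56017 were found by ID in the GRCm39 annotation used for positions. No 2 samples of a group agreed within counting noise. The test was tried on simulated data. The treatment label, culture protocol and design text, which disagree with the titles, were not used, and the strand setting of the counting is not given in the sources used here.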

Additional observations from a re-analysis of the deposited data

Results flagged for a closer look

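Each receptor was checked in each of the 4 groups for a sample whose gap to the nearest other exceeded Dixon's critical value, 36 groups in all, and 5 were past it, where chance gives about 1 in 20 groups. HP1α KO replicate 3 was the lowest of its group for Ccr2 (22.5 CPM, the others 30.1 to 31.5), Ccr9 (18.1 CPM, the others 30.1 to 31.8) and Cxcr6 (32.3 CPM, the others 56.1 to 58.8). HP1γ KO replicate 1 was the lowest for Cxcr3 (172 CPM, the others 180.4 to 181) and for Cxcr6 (53.4 CPM, the others 60.5 to 60.8), in groups whose other 3 samples were almost equal.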

How the results depend on the processing

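The alternatives were DESeq2, RLE size factors, dropping the filter, requiring 10 counts in all samples, a replicate block, 1 fit of all 16 samples, limma on log2 TPM with 2 pseudocounts, and each sample left out. Under them the calls of Ccr8 and Cxcr4 between the WT groups held throughout, and no receptor was called in HP1α KO or in the interaction. The count of receptors called lower in HP1γ KO became 1 (Ccr2) under DESeq2 and 0 to 1 with a sample left out. The count called higher in HP1α KO against HP1γ KO (Ccr10) was 0 under the replicate block, the fit of all 16 samples and both limma fits, and 0 to 1 with a sample left out, where the call without HP1α KO replicate 3 was Cxcr3. Between the WT groups Ccr2 was not past the threshold under limma, with adjusted p of 0.0685 and 0.0660. The cause was not tested. Uncalled values near 0 changed sign. In HP1α KO Ccr10 was at 0.00069 under RLE size factors, 0.036 under the replicate block and 0.035 and 0.051 under limma, and in HP1γ KO Cxcr3 was at 0.0106 and 0.0107 under the limma fits. With a sample left out, log2 fold changes in HP1α KO ran from -0.048 to 0.12 for Ccr4, -0.21 to 0.073 for Ccr6, -0.20 to 0.073 for Ccr9, -0.26 to 0.22 for Ccr10 and -0.16 to 0.23 for Cxcr4. In HP1γ KO they ran from -0.18 to 0.22 for Ccr4 and -0.22 to 0.36 for Ccr9, between the WT groups from -0.37 to 0.32 for Ccr10 and -0.038 to 0.092 for Cxcr3, and between the KO groups from -0.19 to 0.11 for Ccr2. In the interaction they ran from -0.20 to 0.21 for Ccr4, -0.43 to 0.15 for Ccr9 and -0.053 to 0.36 for Cxcr6.

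No label says that replicate numbers pair KO with WT samples. Same-numbered samples had correlations of 0.026 to 0.35 in the HP1α line and -0.0085 to 0.21 in the HP1γ line. Their means were 0.18 and 0.11, and those of samples with other numbers were -0.058 and -0.038. These correlations used deviations from group means, which cancel within a group. The mean for other numbers thus follows from the same-number mean and is no separate baseline. Of the 8 samples in each line, 3 and 2 correlated best with their own number in the other genotype. Pairing was thus neither shown nor excluded. The replicate block ended the call of Ccr10 between the KO groups, with an adjusted p of 0.0886, and no other call of a receptor. On log2(TPM + 1), r fell to 0.63 for Ccr2 with Mbnl3, 0.72 and 0.59 for Ccr4 with Myo1g and Cdc37, 0.82 for Ccr6 with Clcn7, 0.61 for Ccr10 with Cdc6, 0.69 and 0.82 for Cxcr3 with Brd3 and Taf1, 0.49 and 0.75 for Cxcr4 with Chd9 and Ndufa7, and 0.77 and 0.78 for Cxcr6 with Epb41l2 and Canx. From TPM to CPM the 27 ratios of group means moved by less than the spread between samples, and that of Cxcr3 in HP1γ KO to WT went from above to below 1. With 4 samples a group, changes of the size of the SE given could not be told from 0.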
